A study of Mus musculus with 6 samples.

Results

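The genes described here encode the parts of MHC class I antigen presentation: the light chain B2m, the classical heavy chains H2-D1 and H2-K1, the peptide transporter subunits Tap1 and Tap2, the loading factor Tapbp, the transcriptional regulator Nlrc5, and the immunoproteasome subunits Psmb8, Psmb9 and Psmb10. They were chosen by gene symbol, with earlier results of these data known. They comprise 10 of the 19057 genes on the array, with 20 of its 45281 probes. All 10 genes and 18 of the 20 probes passed the detection filter, which kept 8598 genes. The arrays hold RNA from microglia, the resident macrophages of the brain, taken from mice at postnatal day 3 and exposed in culture. The LRRK2KO donors, which lack the kinase LRRK2, came from the line B6.129X1(FVB)-Lrrk2tm1.1Cai/J and the Ntg donors from C57BL/6, so strain and genotype cannot be told apart. Cells of each genotype received lipopolysaccharide (LPS), a component of bacterial outer membranes, for 24 h, LPS for 6 h, or buffered saline (PBS) for 24 h, and the 6 combinations had 1 array each.

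MHC class I molecules carry peptides from the cell interior to the surface, where CD8 T cells read them. Proteasomes cut proteins into peptides, the TAP transporter moves the peptides into the endoplasmic reticulum, and tapasin holds an empty heavy chain with its light chain at the transporter until a peptide binds. Interferons and NF-kB raise transcription of many of these genes, and NLRC5 is their dedicated transactivator. Resting microglia in the brain present little on class I, and inflammatory stimuli are known to raise it.

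Detection (a detection p under 0.01) was reached by 13126 to 15049 probes per array, and median intensities were 94.9 to 111. Levels below are log2 intensities after background correction and quantile normalization. Differences between arms, and between genotypes over the 3 arms, come from 1 additive limma fit over the 6 arrays, with adjusted p-values over all 8598 genes, and a gene was called at an adjusted p under 0.05. The number of arrays limits the precision, and the labels do not say whether they came from separate cultures, so a p-value here covers only the spread among these 6 arrays, which can be technical. Fewer cells of a type and less RNA per cell cannot be told apart in such samples. Of 36 values for Lrrk2 (6 probes), 1 was detected, so its level checks no genotype label.

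RefSeq promoter windows of the GRCm38.p6 assembly, from 250 bases before to 50 after a transcription start, were found for 8 of the 10 genes. These 4 windows, each 300 bases, are written 5′ to 3′ on the gene's strand. They are printed because those of B2m, H2-D1 and H2-K1 hold matches to the motifs capitalised below and that of Tap1 holds none. The B2m window lies at chr2:122147437-122147736 (+ strand), the H2-D1 window at chr17:35262844-35263143 (+ strand), the H2-K1 window, the first of a pair, at chr17:34000284-34000583 (- strand) and the Tap1 window at chr17:34187306-34187605 (+ strand). Capitals mark matches to an interferon-stimulated response element, in a long form (GAAA, any 2 bases, then GAAA, or its reverse complement) or a short form (GAANNGAAA or TTTCNNTTC), to the palindromic GAS element (TTCNNNGAA), and to the NF-kB consensus.
B2m: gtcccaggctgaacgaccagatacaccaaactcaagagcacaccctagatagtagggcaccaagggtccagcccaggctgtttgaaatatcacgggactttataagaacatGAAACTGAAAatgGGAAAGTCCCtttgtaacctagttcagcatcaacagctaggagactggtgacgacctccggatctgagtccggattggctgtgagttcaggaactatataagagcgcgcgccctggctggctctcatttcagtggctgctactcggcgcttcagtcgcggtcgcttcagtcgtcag
H2-D1: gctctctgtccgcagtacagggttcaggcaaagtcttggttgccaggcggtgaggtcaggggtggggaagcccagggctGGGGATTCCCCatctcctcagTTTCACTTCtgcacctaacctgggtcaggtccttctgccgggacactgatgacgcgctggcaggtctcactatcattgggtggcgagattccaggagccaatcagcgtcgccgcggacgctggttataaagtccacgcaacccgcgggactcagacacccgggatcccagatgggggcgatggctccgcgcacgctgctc
H2-K1: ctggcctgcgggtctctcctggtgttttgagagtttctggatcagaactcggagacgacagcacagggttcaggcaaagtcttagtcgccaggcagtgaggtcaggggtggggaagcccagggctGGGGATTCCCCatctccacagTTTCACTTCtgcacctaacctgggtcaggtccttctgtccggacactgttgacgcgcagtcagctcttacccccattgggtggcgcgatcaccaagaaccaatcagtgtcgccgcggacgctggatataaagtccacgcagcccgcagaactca
Tap1: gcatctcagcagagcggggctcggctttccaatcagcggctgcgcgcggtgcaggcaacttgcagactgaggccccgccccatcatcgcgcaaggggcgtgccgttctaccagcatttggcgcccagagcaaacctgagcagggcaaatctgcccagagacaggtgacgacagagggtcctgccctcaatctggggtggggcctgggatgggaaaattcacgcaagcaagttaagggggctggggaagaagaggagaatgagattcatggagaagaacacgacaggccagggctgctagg
In the B2m window, GAAACTGAAA began 139 bases upstream of the start and GGAAAGTCCC, an NF-kB consensus match, 126 bases upstream. In the H2-D1 window, an NF-kB match and its overlapping neighbour (GGGGATTCCC and GGGATTCCCC) began 171 and 170 bases upstream, and TTTCACTTC followed at 150. In the H2-K1 window the same letters began 125, 124 and 104 bases upstream, so the spacing from the first NF-kB match to the short response element was 21 bases in both heavy chain genes. Searched on both strands, the long response element was present in 3.43% of all 32817 windows, the short one in 7.52%, GAS in 8.29% and the NF-kB consensus in 8.46%. The Psmb8 window (chr17:34197945-34198244, + strand) held 1 GAS match, TTCCCAGAA, 97 bases upstream. The windows of Tap1 and Psmb9 (chr17:34187281-34187580, - strand) share 275 bases on opposite strands, and neither held any of the 4 motifs, nor did those of Tapbp and Psmb10. In the RefSeq gene order Psmb9, Tap1, Psmb8 and Tap2 are consecutive protein-coding genes on chromosome 17, which holds 7 of the 10 genes. A match describes letters only and does not show that a factor binds.

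On the brightest detected probe of each gene, all 10 had both LPS 24 h arrays above both PBS arrays. The same was true of both LPS 6 h arrays. Such separation was found for 26.6% of all tested genes at 24 h and for 28.6% at 6 h. A second probe of B2m and of Psmb10 did not separate LPS 24 h from PBS. For B2m, Ntg PBS (14.44) lay above both LPS 24 h arrays (14.41 and 14.42). For Psmb10, LRRK2KO LPS 24 h (11.40) lay below Ntg PBS (11.44). At 24 h, limma called 5 of the 10 higher and 0 lower, while 6.54% of all genes were called higher, 8.99% lower and 15.5% either way. At 6 h it called 8 higher and 0 lower, while 15.8% of all genes were called higher, 26.2% lower and 42% either way. Over all genes these were 1357 higher and 2256 lower calls at 6 h, or 1711 and 1769 under median scaling, which moved the median of all genes to 0.02. The median log2 change of the 10 was 0.72 at 24 h (all genes -0.01) and 1.04 at 6 h (all genes -0.13). The largest rises were those of Tap1 and Nlrc5, and the smallest differences those of B2m and H2-D1. Both comparisons use the same PBS arrays, and the 6 h comparison also differs from them in culture time, because its PBS cells were kept for 24 h. Leaving out the Ntg LPS 24 h array turned the count of 5 to 0, leaving out Ntg PBS turned it to 1, and leaving out either LRRK2KO array of that comparison turned it to 2. The count of 8 became 4 if the Ntg LPS 6 h array was omitted and 5 if Ntg PBS was omitted.

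**Figure D1:**
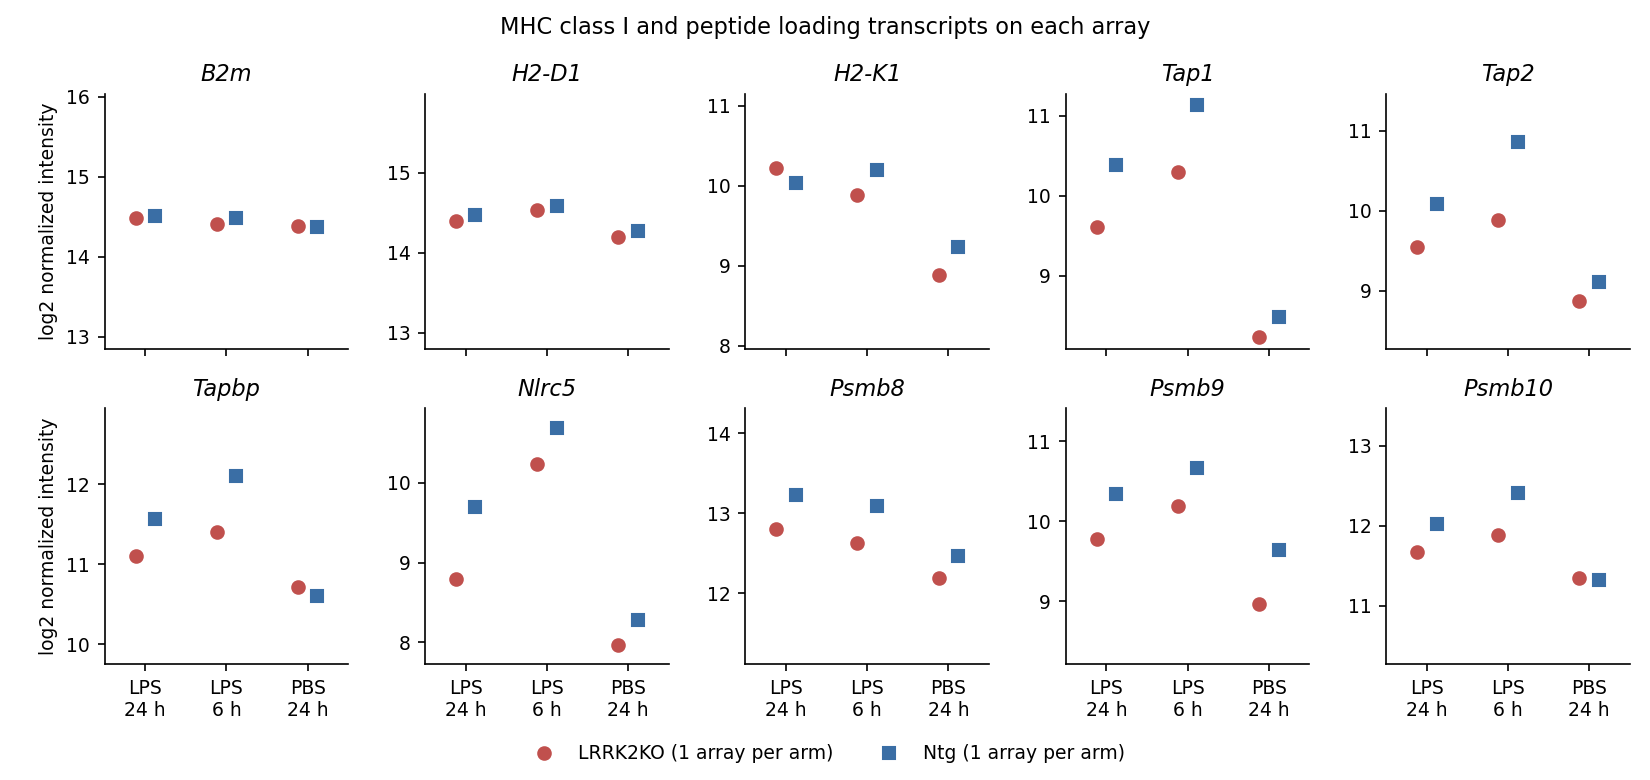
Log2 normalized intensity of each gene on each of the 6 arrays, with LPS 24 h, LPS 6 h and PBS 24 h from left to right, LRRK2KO as circles and Ntg as squares, 1 array per point. The vertical axes cover the same number of log2 units, and in all 10 panels the 4 LPS points lie above both PBS points. In arm means the LPS arms differ from PBS the least for B2m and H2-D1 and the most for Tap1 and Nlrc5.

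B2m, which encodes the beta-2-microglobulin light chain that every classical class I molecule needs, had log2 levels of 14.48 (LRRK2KO) and 14.52 (Ntg) at LPS 24 h, 14.42 and 14.49 at LPS 6 h, and 14.39 and 14.37 at PBS 24 h. All 6 arrays lay within 0.14 log2 units, with the LPS arrays just above the PBS arrays. The difference from PBS was 0.12 ± 0.14 at 24 h (SE, n = 2 arrays per arm; limma adjusted p = 0.615; 95% interval -0.23 to 0.47) and 0.07 ± 0.14 at 6 h (adjusted p = 0.695; -0.27 to 0.42). The raw intensity of its probe was 69.6% to 86.1% of that of the brightest probe on the same array, and whether the scanner's upper range narrowed the difference was not tested.

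H2-D1, a classical heavy chain, had levels of 14.39 (LRRK2KO) and 14.48 (Ntg) at LPS 24 h, 14.53 and 14.59 at LPS 6 h, and 14.19 and 14.27 at PBS 24 h. The arms did not overlap, but the gaps were small. It differed from PBS by 0.20 ± 0.14 at 24 h (limma adjusted p = 0.388; 95% interval -0.14 to 0.55) and by 0.33 ± 0.14 at 6 h (adjusted p = 0.108; -0.02 to 0.67). Its probe stood at 58.7% to 92.2% of the brightest probe. At 6 h H2-D1 passed the threshold under median scaling of the arrays (0.72), when its probes were averaged (0.59), without background correction (0.33), in the authors' table (0.33) and with an intensity trend (0.33).

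H2-K1, the other classical heavy chain of C57BL/6 mice, had levels of 10.22 (LRRK2KO) and 10.04 (Ntg) at LPS 24 h, 9.89 and 10.20 at LPS 6 h, and 8.89 and 9.24 at PBS 24 h. The LPS times overlapped each other and stood clear of PBS. H2-K1 rose by 1.07 ± 0.19 on the log2 scale at 24 h (limma adjusted p = 0.0165) and by 0.98 ± 0.19 at 6 h (adjusted p = 0.00973), about 2.10-fold and 1.97-fold. Class I heavy chains are close relatives, so their probes may share signal and the member behind a value is uncertain.

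Tap1, a subunit of the peptide transporter, had levels of 9.61 (LRRK2KO) and 10.38 (Ntg) at LPS 24 h, 10.30 and 11.13 at LPS 6 h, and 8.23 and 8.49 at PBS 24 h. Both LPS 24 h arrays were clear of PBS, and in each genotype the 6 h array was the highest. Tap1 rose 3.11-fold at 24 h (log2 1.64 ± 0.19; limma adjusted p = 0.00518) and 5.12-fold at 6 h (log2 2.36 ± 0.19; adjusted p = 0.000757).

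Tap2, the partner subunit, had levels of 9.54 (LRRK2KO) and 10.08 (Ntg) at LPS 24 h, 9.88 and 10.86 at LPS 6 h, and 8.87 and 9.10 at PBS 24 h. The order of the arms in each genotype was that of Tap1. Its difference at 24 h, 0.82 ± 0.21, just missed the threshold (limma adjusted p = 0.0505; 95% interval 0.31 to 1.34), and at 6 h it rose by 1.38 ± 0.21 (adjusted p = 0.00481).

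Tapbp encodes tapasin, which bridges the transporter and the heavy chain. Its levels were 11.10 (LRRK2KO) and 11.57 (Ntg) at LPS 24 h, 11.40 and 12.10 at LPS 6 h, and 10.71 and 10.60 at PBS 24 h. The LRRK2KO array was the lower at both LPS times and the higher in PBS. On a second Tapbp probe LRRK2KO was the lower in PBS too (8.24 against 8.60). Tapbp rose by 1.10 ± 0.22 at 6 h (limma adjusted p = 0.0117), and its 24 h difference was 0.68 ± 0.22 (adjusted p = 0.0962; 95% interval 0.14 to 1.22).

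Nlrc5, the class I transactivator, had levels of 8.79 (LRRK2KO) and 9.69 (Ntg) at LPS 24 h, 10.23 and 10.69 at LPS 6 h, and 7.97 and 8.28 at PBS 24 h. All 3 arms were separate, with the 6 h arrays highest. Nlrc5 rose 2.17-fold at 24 h (log2 1.11 ± 0.19; limma adjusted p = 0.0152) and 5.04-fold at 6 h (log2 2.33 ± 0.19; adjusted p = 0.000753).

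Psmb8, Psmb9 and Psmb10 replace the constitutive catalytic subunits in the immunoproteasome, which favours peptides that suit class I. Psmb8 had levels of 12.81 (LRRK2KO) and 13.23 (Ntg) at LPS 24 h, 12.63 and 13.09 at LPS 6 h, and 12.19 and 12.47 at PBS 24 h. It was higher on the 24 h than on the 6 h array of each genotype, and rose by 0.69 ± 0.15 at 24 h (limma adjusted p = 0.0304) and by 0.53 ± 0.15 at 6 h (adjusted p = 0.0320). Psmb9 had levels of 9.78 (LRRK2KO) and 10.35 (Ntg) at LPS 24 h, 10.20 and 10.67 at LPS 6 h, and 8.96 and 9.64 at PBS 24 h. The LPS arrays again stood above PBS, with the LRRK2KO LPS 24 h array only just above the Ntg PBS array. Psmb9 rose by 0.76 ± 0.15 at 24 h (limma adjusted p = 0.0227) and by 1.13 ± 0.15 at 6 h (adjusted p = 0.00300). Psmb10 had levels of 11.67 (LRRK2KO) and 12.02 (Ntg) at LPS 24 h, 11.89 and 12.41 at LPS 6 h, and 11.34 and 11.32 at PBS 24 h. The PBS arrays were nearly level, and both LPS arms lay above them. On a second Psmb10 probe the PBS arrays were at 11.25 (LRRK2KO) and 11.44 (Ntg), and LRRK2KO LPS 24 h (11.40) lay between them. Psmb10 rose by 0.82 ± 0.18 at 6 h (limma adjusted p = 0.0160), with a 24 h difference of 0.51 ± 0.18 (adjusted p = 0.119; 95% interval 0.07 to 0.96).

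**Figure D2:**
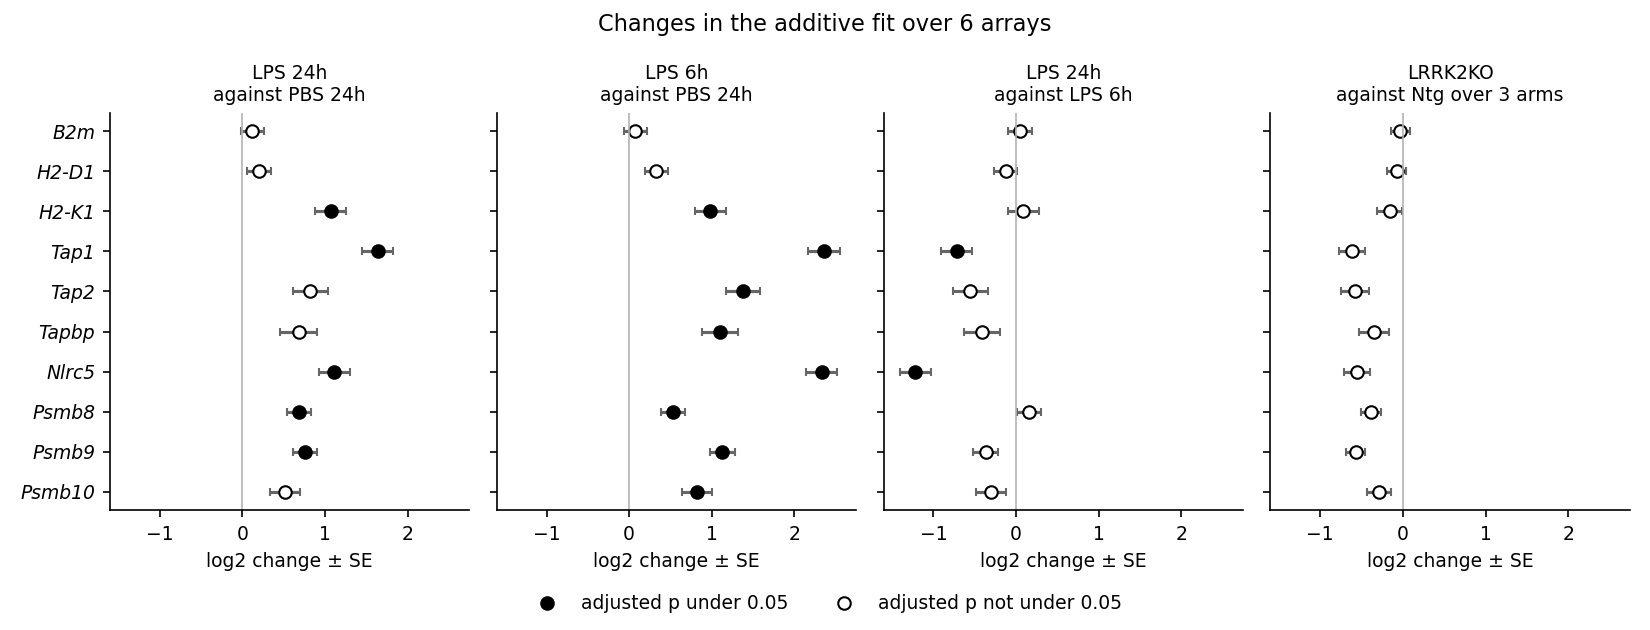
Log2 change of each gene in the additive fit, as LPS 24 h against PBS 24 h, LPS 6 h against PBS 24 h, LPS 24 h against LPS 6 h, and LRRK2KO against Ntg over 3 arms, with bars of 1 SE and filled points where the adjusted p was under 0.05. The filled points number 5, 8, 2 and 0 in that order, and all 10 genotype points lie left of 0, where B2m moves to 0.037 under median scaling.

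Of the 10 genes, the regulator Nlrc5 and the transporter subunit Tap1 were called between the LPS times. Nlrc5 was lower at 24 h than at 6 h, with a log2 difference of -1.22 ± 0.19 (limma adjusted p = 0.0110), as was Tap1, with -0.72 ± 0.19 (adjusted p = 0.0434). The count was thus 2 of 10, both lower, while 9.68% of all genes were called lower and 23.8% either way (1216 higher and 832 lower, or 1001 and 1052 under median scaling). Both 24 h arrays lay below both 6 h arrays for 2 of the 10, Nlrc5 and H2-D1, against 24.5% of all genes. For Tap1 the arms overlapped, since the Ntg array at 24 h (10.38) was above the LRRK2KO array at 6 h (10.30). The remaining differences included -0.55 ± 0.21 for Tap2 (adjusted p = 0.107), 0.09 ± 0.19 for H2-K1 (adjusted p = 0.758; 95% interval -0.37 to 0.54) and 0.16 ± 0.15 for Psmb8 (adjusted p = 0.455; -0.20 to 0.52). The median of the 10 was -0.34, against 0.10 for all genes under quantile normalization. With arrays scaled to a common median the medians were -0.58 and -0.01, and H2-K1, Psmb8 and B2m changed sign to -0.081, -0.18 and -0.25. The count of 2 became 0 if either LPS 24 h array was omitted and 1 if Ntg LPS 6 h was omitted.

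Averaged over the 3 arms, all 10 genes had lower levels on LRRK2KO than on Ntg arrays, except B2m (0.037) under median scaling, and none of these differences was called. At an adjusted p under 0.05 limma called 0 of 10, against 0.465% of all genes (0.302% lower). At an unadjusted p under 0.05 there were 5 of 10, against 1383 of all 8598 genes. The median difference was -0.37, while that of all genes was close to 0. With 1 probe per gene, the largest were -0.62 ± 0.16 for Tap1 (SE, n = 3 arrays per genotype; limma adjusted p = 0.156; 95% interval -1.003 to -0.236), -0.58 ± 0.17 for Tap2 (adjusted p = 0.200), -0.57 ± 0.12 for Psmb9 (adjusted p = 0.114; -0.87 to -0.28) and -0.56 ± 0.15 for Nlrc5 (adjusted p = 0.181). Psmb8 stood at -0.39 ± 0.12 (adjusted p = 0.211), Tapbp at -0.35 ± 0.18 (adjusted p = 0.404) and Psmb10 at -0.29 ± 0.15 (adjusted p = 0.404). For the light chain and the heavy chains the representing probes gave -0.03 ± 0.12 for B2m (adjusted p = 0.928; -0.31 to 0.25), -0.07 ± 0.11 for H2-D1 (adjusted p = 0.803; -0.36 to 0.21) and -0.16 ± 0.15 for H2-K1 (adjusted p = 0.663; -0.53 to 0.21). The H2-K1 value depends on the probe, because its other probes gave -0.56 and -0.75. No gene had all 3 LRRK2KO arrays below all 3 Ntg arrays, an arrangement found for 3.64% of all genes.

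Arm by arm, the genotypes were compared with 1 probe per gene. LRRK2KO was the lower array for 9 of 10 genes at LPS 24 h, for 10 of 10 at LPS 6 h and for 7 of 10 in PBS. The exceptions were H2-K1 at LPS 24 h (0.18) and B2m (0.01), Tapbp (0.11) and Psmb10 (0.02) in PBS. In 3 of 3 arms LRRK2KO was lower for 6 of 10 genes, namely H2-D1, Tap1, Tap2, Nlrc5, Psmb8 and Psmb9, against 20.2% of all genes. These counts depend on the probe. Another H2-D1 probe was higher in LRRK2KO at LPS 24 h (9.76 against 9.40), and a further one in PBS (13.55 against 13.53). So were a second Psmb8 probe in PBS (9.38 against 9.37) and a second B2m probe at LPS 6 h (14.48 against 14.46). The other detected probes of H2-K1, Tapbp and Psmb10 were lower in LRRK2KO in every arm. The median difference of the 10 was -0.45 at LPS 24 h, -0.47 at LPS 6 h and -0.24 in PBS, against -0.03, 0.03 and -0.01 for all genes. Single-array differences have no test. The widest were -0.98 for Tap2 at LPS 6 h, -0.90 for Nlrc5 at LPS 24 h and -0.83 for Tap1 at LPS 6 h.

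**Figure D3:**
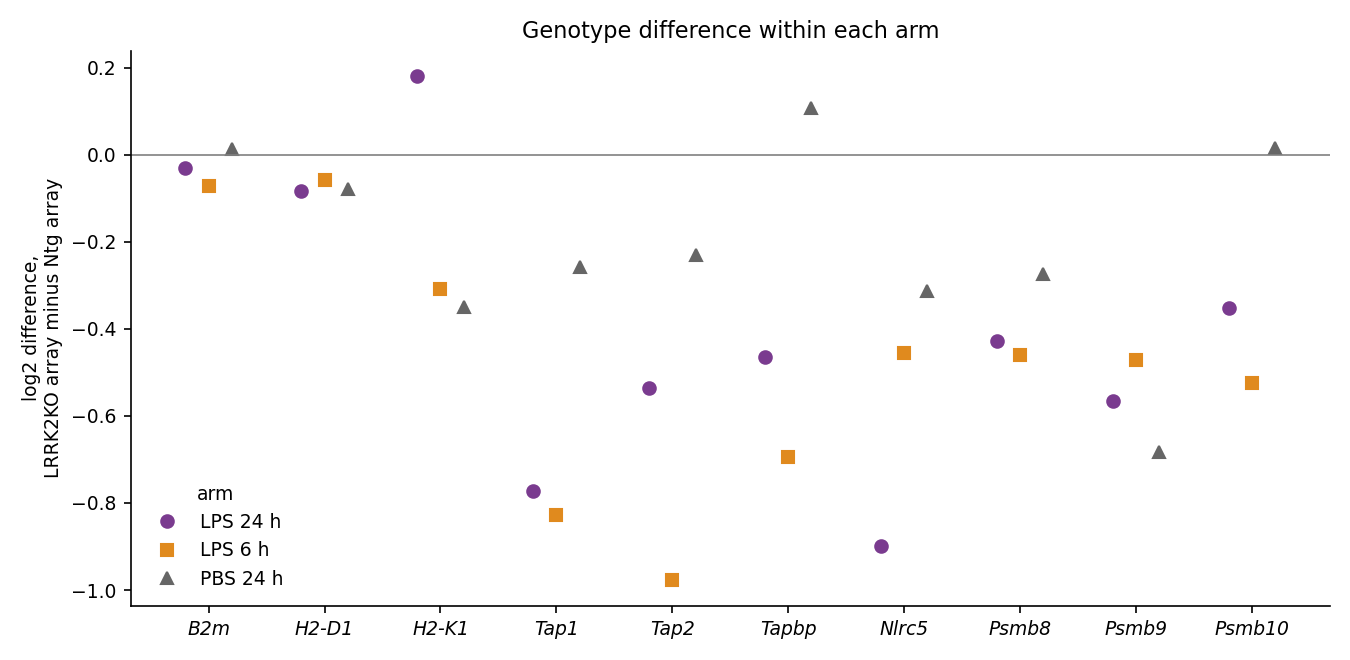
Log2 difference of each gene between the LRRK2KO array and the Ntg array of the same arm. Each gene has 1 probe and 1 point per arm, with no test. Most points lie below 0, down to -0.98 for Tap2 at LPS 6 h, while the 3 points of B2m and of H2-D1 stay near 0 and H2-K1 lies above 0 at LPS 24 h.

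The difference from PBS was also compared between genotypes, as values only, because 1 array per group leaves no test of that difference. At LPS 24 h the median difference of the 10 genes was 0.64 in LRRK2KO and 0.78 in Ntg cells, and at LPS 6 h it was 0.85 in LRRK2KO and 1.05 in Ntg cells. The difference was the smaller in LRRK2KO for 8 of 10 genes at 24 h and for 7 of 10 at 6 h, against 53.6% and 46% of all genes. These counts use 1 probe per gene. The 8 included H2-D1 and B2m, where LRRK2KO minus Ntg was -0.003 and -0.044, beside a residual SD of 0.14. On another probe of B2m, of H2-D1 and of Tapbp, the 24 h difference was the larger in LRRK2KO. At 6 h the direction also differed between probes of B2m, H2-D1 and H2-K1. Tapbp had the widest gap at 6 h, with 0.70 in LRRK2KO and 1.499 in Ntg cells, followed by Tap2 with 1.004 and 1.75. At 24 h the Nlrc5 difference was 0.82 in LRRK2KO and 1.41 in Ntg cells. H2-K1 went the other way at 24 h, with 1.33 in LRRK2KO and 0.80 in Ntg cells. The H2-K1 probes disagreed on this. The brighter of its other probes had the smaller difference in LRRK2KO. Its levels were 9.40 (LRRK2KO) and 10.35 (Ntg) at LPS 24 h, and 8.38 and 8.80 in PBS. A level at least 2-fold above PBS was reached by 2 genes in either genotype at 24 h, and by 5 in LRRK2KO and 6 in Ntg cells at 6 h. Such differences were seen for 4.56% (LRRK2KO) and 4.31% (Ntg) of all genes at 24 h, and for 8.01% and 8.99% at 6 h.

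Several genes had more than 1 detected probe, and the one with the highest mean represented the gene. For H2-D1 the representing probe and a second one differed from PBS by 0.33 and 0.34 at 6 h, neither called, while the remaining one, with raw intensities of 411 to 1032, rose by 1.09 ± 0.23 (limma adjusted p = 0.0121 in a fit of every detected probe). Its levels were 9.76 (LRRK2KO) and 9.40 (Ntg) at LPS 24 h, 9.80 and 9.97 at LPS 6 h, and 8.56 and 9.04 at PBS 24 h. Both LPS arms lay above PBS, with the 24 h arrays below the 6 h arrays. The probes labelled H2-D1 thus gave estimates of different size, and which of them reports the transcript was not tested.

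All 3 H2-K1 probes rose at 6 h, by 0.98, 1.04 and 1.18. Between genotypes the representing probe gave -0.16 ± 0.16 (limma adjusted p = 0.687 in the fit of every detected probe), the others -0.56 ± 0.14 (adjusted p = 0.161) and -0.75 ± 0.15 (adjusted p = 0.116). On the last of these the levels were 9.40 (LRRK2KO) and 10.35 (Ntg) at LPS 24 h, 9.33 and 10.21 at LPS 6 h, and 8.38 and 8.80 at PBS 24 h, with LRRK2KO lower in each arm. The second Tapbp probe rose at both times (1.28 ± 0.26 at 24 h, adjusted p = 0.0254; 1.39 ± 0.26 at 6 h, adjusted p = 0.00830), as did the second Psmb8 probe (1.03 ± 0.23 at 24 h, adjusted p = 0.0335; 0.90 ± 0.23 at 6 h, adjusted p = 0.0229). The second Psmb10 probe gave 0.31 ± 0.17 at 24 h (limma adjusted p = 0.292) and 0.73 ± 0.17 at 6 h (adjusted p = 0.0183). The B2m probes gave 0.12 and 0.005 at 24 h, and both stayed near 0 at 6 h (0.07 and 0.06).

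**Figure D4:**
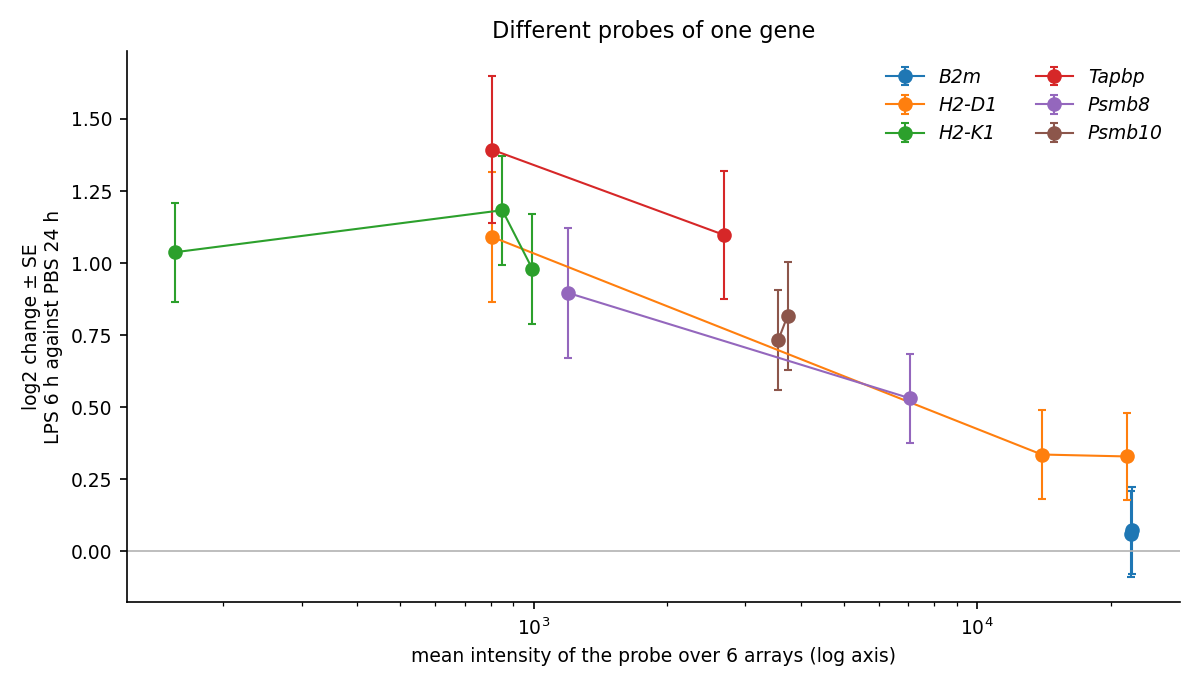
Log2 change at LPS 6 h against PBS 24 h (± SE) of every detected probe of the 6 genes with more than 1, against the probe's mean raw intensity over 6 arrays on a log axis, with lines joining probes of 1 gene. The H2-D1 probes run from 0.33 to 1.09, the H2-K1 probes lie between 0.98 and 1.18, and both B2m probes are near 0.

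Other genes of the pathway followed in part. The counts of this and the following lists stand beside those of all genes. Of all genes, 6.54% were called higher and 8.99% lower at 24 h, and 15.8% higher and 26.2% lower at 6 h. Between 6 h and 24 h, 1216 of all 8598 genes were called higher and 832 lower. Of 10 other class I heavy chain genes tested, 8 rose and 0 fell at 24 h, and 8 rose and 0 fell at 6 h, with medians of 0.99 and 0.996. H2-T10 rose by 2.07 ± 0.17 at 24 h (limma adjusted p = 0.00193) and by 1.75 ± 0.17 at 6 h (adjusted p = 0.00125). H2-Q6 rose by 2.12 ± 0.43 at 24 h and 1.68 ± 0.43 at 6 h (adjusted p = 0.0269 and 0.0257), and H2-Q7 by 1.06 ± 0.22 and 1.17 ± 0.22 at the same times (adjusted p = 0.0296 and 0.00976). H2-T24 rose by 1.07 ± 0.17 at 24 h (adjusted p = 0.0122). H2-M2 stood out at 6 h, with levels of 12.66 (LRRK2KO) and 13.62 (Ntg), against 10.03 and 10.69 in PBS, a rise of 2.78 ± 0.16 (adjusted p = 0.000362), and fell by 2.14 ± 0.16 on the log2 scale between 6 h and 24 h (adjusted p = 0.00247). The probes of these close relatives may share signal. Between genotypes limma called 0 of the 10, with a median of -0.66. At an unadjusted p under 0.05 there were 7, against 1383 of all 8598 genes.

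Of 3 class I-like genes tested, 2 fell at both times: Hfe, a regulator of iron uptake that binds the same light chain, with changes of -1.64 ± 0.21 at 24 h and -1.79 ± 0.21 at 6 h (limma adjusted p = 0.00630 and 0.00210), and Fcgrt, the neonatal Fc receptor, with -1.08 ± 0.18 and -1.24 ± 0.18 (adjusted p = 0.0140 and 0.00398). Among 9 partners in the endoplasmic reticulum 0 were called at 24 h, where the median was 0.47. At an unadjusted p under 0.05 there were 5, against 2631 of all 8598 genes. At 6 h Tapbpl, a tapasin relative that edits peptides, rose by 1.49 ± 0.21 (adjusted p = 0.00405), while Calr, the chaperone calreticulin, and Pdia3, its disulfide isomerase partner in the loading complex, fell, with changes of -1.10 ± 0.15 and -0.95 ± 0.24 (adjusted p = 0.00332 and 0.0237). Between 6 h and 24 h Calr and Pdia3 rose by 1.63 ± 0.15 and 1.25 ± 0.24 (adjusted p = 0.00401 and 0.0186), and Tapbpl fell by 1.01 ± 0.21 (adjusted p = 0.0236).

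Of 11 tested genes for the constitutive 20S proteasome, 0 were called by limma in any of the 4 comparisons, with medians of 0.15 at 24 h and 0.05 at 6 h against PBS. At an unadjusted p under 0.05 there were 0 at 24 h and 2 at 6 h, against 2631 and 4424 of all 8598 genes. Of 17 tested genes of the 19S regulator, 2 rose at 6 h, Psmd11 by 0.75 ± 0.17 and Psmd2 by 0.57 ± 0.16 (limma adjusted p = 0.0172 and 0.0338), and 0 were called at 24 h (1 unadjusted). Of 10 genes for cytosolic peptide supply, 0 were called at 24 h (2 unadjusted) and 2 fell at 6 h, the peptidase gene Thop1 with -0.84 ± 0.16 and the proteasome assembly chaperone gene Psmg2 with -0.76 ± 0.17 (adjusted p = 0.00949 and 0.0158). Of all genes, 15.8% were called higher and 26.2% lower at 6 h. Between 6 h and 24 h Thop1 rose by 0.70 ± 0.16 and Psmg2 by 0.73 ± 0.17 (adjusted p = 0.0278 and 0.0297).

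Of 12 transcription factor genes known to act on class I promoters, 2 rose at 24 h and 7 at 6 h, 0 fell in either, and 6 fell between 6 h and 24 h. Of all genes, 6.54% were called higher at 24 h and 15.8% at 6 h, and 9.68% lower between 6 h and 24 h. Stat2, of the interferon-activated ISGF3 complex, rose by 1.26 ± 0.14 at 24 h (limma adjusted p = 0.00470) and 2.48 ± 0.14 at 6 h (adjusted p = 0.000367). Irf1, an interferon regulatory factor of class I genes, rose by 1.25 ± 0.21 at 6 h (adjusted p = 0.00681) and fell by 1.47 ± 0.21 between 6 h and 24 h (adjusted p = 0.00966). Nfya, a subunit of the factor that binds CCAAT boxes, rose by 1.10 ± 0.17 at 6 h (adjusted p = 0.00540), as did Irf9, another ISGF3 subunit, by 0.85 ± 0.16 (adjusted p = 0.00906). Irf8, a macrophage interferon regulatory factor, rose by 0.96 ± 0.15 at 24 h (adjusted p = 0.0116). Between 6 h and 24 h the changes of Stat2, Nfya and Irf2, a repressor related to Irf1, were -1.22 ± 0.14, -0.85 ± 0.17 and -0.72 ± 0.15 (adjusted p = 0.00672, 0.0217 and 0.0225). A CCAAT box (CCAAT or ATTGG) was present in the RefSeq windows of B2m, H2-D1, H2-K1, Tap1, Tapbp and Psmb9, and in 37.4% of all windows. Of 4 class II genes tested, 1 rose and 0 fell at 24 h, and 2 rose and 1 fell at 6 h. H2-Ab1, a class II chain, rose by 2.84 ± 0.20 at 24 h and 2.92 ± 0.20 at 6 h (adjusted p = 0.00125 and 0.000534) with detection on 1 of 2 PBS arrays. Cd74, the invariant chain, rose by 0.91 ± 0.20 at 6 h (adjusted p = 0.0158) and fell by 0.75 ± 0.20 between 6 h and 24 h (adjusted p = 0.0450). H2-DMb1, a chain of the class II peptide editor, fell by 0.67 ± 0.14 at 6 h (adjusted p = 0.0141).

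**Figure D5:**
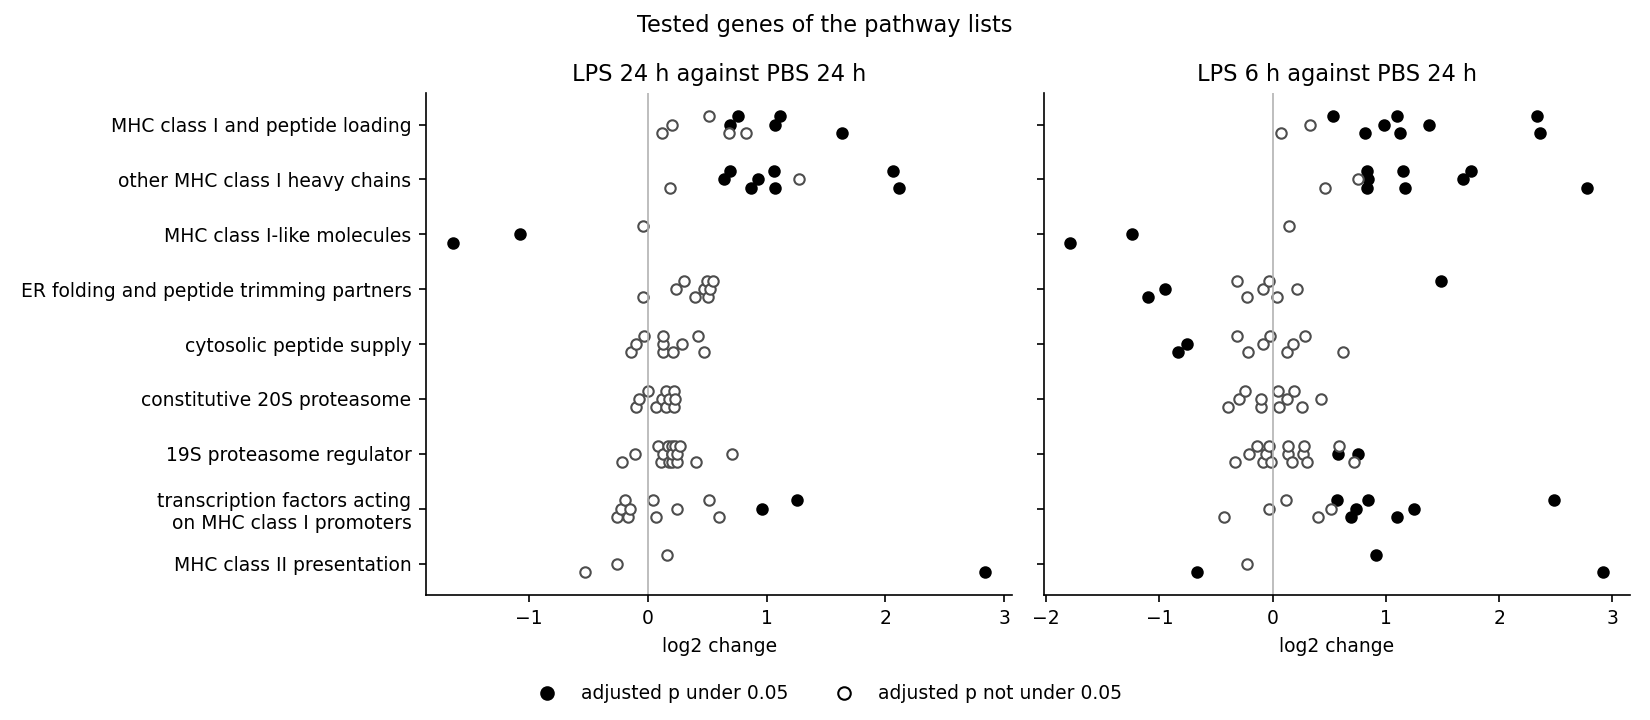
Log2 change of every tested gene of the pathway lists at LPS 24 h and at LPS 6 h, each against PBS 24 h, with 1 row per list and filled points where the adjusted p was under 0.05. The 10 class I and peptide loading genes and the other class I heavy chains lie right of 0, while the genes of the constitutive 20S proteasome hold no filled point.

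Cell type markers moved in the same comparisons. Of 10 microglia markers 8 were tested, of which 1 rose and 5 fell at 24 h and 6 fell at 6 h. Of all genes, 8.99% were called lower at 24 h and 26.2% at 6 h. Their summed normalized level was 16263 to 20944 at LPS 24 h, 18972 to 24731 at LPS 6 h and 39577 to 40757 at PBS 24 h, and P2ry12, a defining marker, was undetected on all 6 arrays. The summed level of the 5 tested astrocyte markers was 1714 to 2309 at LPS 24 h, 727 to 1075 at LPS 6 h and 242 to 256 at PBS 24 h. Among them Gja1 rose by 4.05 ± 0.21 at 24 h (limma adjusted p = 0.000915). Gfap (0.09), Aldh1l1 (-0.48), Slc1a2 (0.24) and Slc1a3 (-0.44) were not called at 24 h. Gja1 and Slc1a2 were called higher at 6 h. Aqp4 was undetected on all but the Ntg PBS array, and S100b on all 6 arrays. Of 5 tested oligodendrocyte lineage markers 1 was called against PBS, Mbp (myelin basic protein), with -1.14 ± 0.26 at 24 h and -2.90 ± 0.26 at 6 h (adjusted p = 0.0391 and 0.00107). For 2 tested neutrophil and monocyte markers, S100a8 and Camp, the summed level was 1772 to 2549 at LPS 24 h, 640 to 817 at LPS 6 h and 92.2 to 140 at PBS 24 h. S100a9, Ccr2 and Ngp of the same list were undetected on all 6 arrays. No lymphocyte or neuron marker entered the test, and Cd3e, Cd3d, Cd8a, Nkg7 and Ncr1 were undetected on every array. Of the same lists, Ms4a1 was detected on the LRRK2KO LPS 24 h array only. Cd4 was detected only on LRRK2KO PBS, and the neuron marker Map2 only on Ntg LPS 24 h. Between genotypes 3 of 5 border macrophage markers were tested, with a summed level of 1043 to 2310 on LRRK2KO and 2716 to 5822 on Ntg arrays. Mrc1, the mannose receptor, fell by 1.72 ± 0.15 (adjusted p = 0.0389), and Cd163 and Lyve1 were undetected on all 6 arrays. The part of these markers in the class I values was not tested.

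The profiles of the 10 genes over the 6 arrays resembled each other to differing degrees. Over all 45 pairs of them, Pearson's r across the 6 arrays ran from 0.585 to 0.999 with a median of 0.88, and 21 pairs exceeded 0.9. Against the mean of their standardized profiles, r was highest for Tap1 (0.99) and lowest for B2m (0.82), whose levels hardly varied. Each of the 10 is part of that mean, which raises its own r, while genes outside the 10 are not. Outside the 10, the tested genes with the highest r were Bambi-ps1 (0.997), Nrbp1, Mlkl and Svbp (0.995 each) and Ino80 (0.992). Mlkl, which encodes a pseudokinase of necroptosis, had levels of 9.88 (LRRK2KO) and 10.82 (Ntg) at LPS 24 h, 10.35 and 11.35 at LPS 6 h, and 7.95 and 8.72 at PBS 24 h. In it, as in Tap1, the Ntg LPS 6 h array was highest and the LRRK2KO PBS array lowest. The points share arrays and arms, so these correlations describe the 6 arrays only.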

How the data were processed

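RNA from cultured microglia was hybridised to 6 Illumina beadchips, 1 for each combination of LRRK2KO or Ntg with LPS 24 h, LPS 6 h or PBS 24 h, with groups read from the titles. Per the file headers, the deposited table gives an unnormalized linear intensity and a detection p-value for each of 45281 probes. The submitters' processing notes name BeadStudio, with no version among the sources used here. The lowest intensity was 78.1, so background had not been subtracted. The authors' normalized intensity table, whose columns have medians of about 101 and rank the probes as the raw columns do (Spearman rho = 1), served as an alternative.

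limma 3.58.1 in R 4.3.3 was used for neqc (normexp from the detection p-values, offset 16, quantile normalization, log2 of the deposited intensity). Probes were named from the platform annotation (34885 with 1 symbol, 18 with several, 10378 with none), and the probe with the highest mean among those detected on at least 2 arrays represented a gene. The fit had genotype and arm as terms, 2 residual and 3.88 prior degrees of freedom, and two-sided p-values adjusted by Benjamini and Hochberg. Its error includes any genotype-dependent response. On simulated data for LPS 24 h against PBS 24 h (8598 genes, 200 changed), it recovered 0% of genes changed by 1 on the log2 scale and 97.5% of those changed by 2, with 15 false calls. In the real comparison 1335 genes were called. The adjusted p depends on how many genes change, so the simulated recovery does not carry over to the real data. The correlation across genes was 0.980 to 0.983 between the arrays of an arm and 0.886 to 0.958 between other pairs.

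The genes and lists were chosen with earlier results of these data known. Named were all 10 genes, up to 4 called genes with the largest change per pathway list and comparison, the 5 genes with the most similar profile, and up to 3 markers per list. Alternatives covered background correction, normalization, offset, detection filter, probe averaging, variance trend, genotype term, leaving out each array and, added after seeing the data, a fit of every detected probe.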

Additional observations from a re-analysis of the deposited data

How the results depend on the processing

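No paired analysis was possible because the groups share only replicate number 1. No gene of the 10 changed direction against PBS under any alternative. The number called at LPS 24 h against PBS was 8 with an intensity trend in the variance, 2 without a genotype term and 0 to 6 when 1 array was left out, against 5. At LPS 6 h against PBS it was 4 to 7 when 1 array was left out, against 8. For LPS 24 h against LPS 6 h it was 1 with no filter on detection, 0 without a genotype term and 0 to 2 when 1 array was left out, against 2. Between genotypes it was 1, against 0, without background correction, in the authors' table and with an intensity trend; that gene was Psmb9, at -0.52, -0.52 and -0.57. Single-array differences of at least 2-fold numbered 25 with arrays scaled to a common median, against 16. Signs turned only in values that were not called: with arrays scaled to a common median, LPS 24 h against LPS 6 h became -0.25 for B2m, -0.081 for H2-K1 and -0.18 for Psmb8, and LRRK2KO against Ntg 0.037 for B2m. With probes averaged, LPS 24 h against LPS 6 h became -0.0037 for B2m and -0.047 for H2-K1, and H2-K1 ran from -0.17 to 0.34 when 1 array was left out, below 0 if the LRRK2KO LPS 24 h or the LRRK2KO LPS 6 h array was omitted. The cause was not tested. Calls over all genes at LPS 24 h against PBS numbered 1335, with 712 if the genotype term was dropped and 319 to 1633 when 1 array was left out. At LPS 6 h against PBS they numbered 3613, and 1815 to 3325 with 1 array left out. For LPS 24 h against LPS 6 h the count of 2048 became 1257 if the genotype term was dropped and 161 to 1976 with 1 array left out. Between genotypes 40 genes were called, and 0 to 183 across the alternatives.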
